A study of Mus musculus with 2 samples.

Results

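The lipid-associated macrophage genes examined here are 10 genes that earlier work on fat, arterial plaque and brain grouped as a programme of macrophages that take up and process lipid: Apoe, Abca1, Abcg1, Lpl, Trem2, Gpnmb, Spp1, Fabp5, Lgals3 and Cd9. They were taken by symbol, without a cut on measured values, although earlier results of these data were known when they were chosen. All 10 of 10 were among the 31192 genes of the deposited matrix. The cells came from hearts of mice carrying Cdh5-CreERT2, a tamoxifen-inducible Cre recombinase driven by an endothelial promoter, together with the REFLEX reporter, in which GFP labels cells that have interacted. Every mouse received tamoxifen and transverse aortic constriction, surgery in which a band on the aorta loads the heart with pressure, and the ages and the number of mice are not given in the sources used here. Sorting on GFP and on CD45, a surface protein shared by leukocytes, gave 4 fractions that were pooled into 1 transcriptome library with 1 hashtag library, so there are no replicates, no unoperated hearts and no test across animals. The hashtag names on the cells (A951, A952, A953, A965 and doublet) are not tied to a fraction by the labels.

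In background terms, macrophages that engulf dying cells take in cholesterol and fatty acids, which they must store, burn or export. The nuclear receptor LXR, which senses oxidised cholesterol, switches on the exporters Abca1 and Abcg1 and the acceptor Apoe, while Lpl frees fatty acids from lipoproteins and Fabp5 carries them inside the cell. Trem2 is a surface receptor for lipids and debris that signals through Tyrobp, and in fat tissue it is needed for the full programme, whose other products include the membrane glycoprotein Gpnmb, the secreted matrix protein osteopontin (Spp1), galectin-3 (Lgals3) and the tetraspanin Cd9.

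Of 878 cells, 857 had at most 25% mitochondrial counts and were used, with 28407 to 706332 estimated counts per cell and a median of 77839. Counts were summed over the cells of a group and scaled to 1000000 counts per group (CPM), and the 95% intervals given are exact and cover counting error only. Macrophages were taken as cells in which C1qa, C1qb and C1qc, the complement genes of tissue macrophages, summed to at least 200 CPM. This gave 55 cells (6.42%, 4.87 to 8.27), with a median of 5817 CPM of the 3 genes, a lowest value of 221.9 CPM just inside the limit and a highest value of 193.6 CPM just outside it. Of these 55 cells, 52 held counts of Ptprc, which encodes CD45, 53 of Csf1r, 53 of Cd68, 46 of Adgre1 (F4/80), 46 of Fcgr1 and 43 of Mrc1. At least 3 of 10 macrophage markers reached 50 CPM in 53 cells. These 10 markers include the 3 C1q genes that selected the cells, so that count is not separate evidence of what the cells are. Neutrophil markers summed to 463 CPM in the C1q-positive cells, beside 101782 CPM in neutrophil-like and 322 CPM in B cell-like cells, and at least 3 of them reached 50 CPM in 36 cells. Monocyte markers summed to 4051 CPM, beside 15717 CPM in monocyte-like cells, and 49 cells had at least 3. The part of RNA from other cells in the values below was not tested. Clustering placed 44 of the 55 in the macrophage-like class of 49 cells, 5 in the monocyte-like class, 5 in an unnamed cluster led by Plcb1 and 1 in the conventional dendritic-like class. C1q-positive cells were deep, with a median of 215419 counts, so shares of cells with a gene are given after every cell had been thinned to 25000 counts.

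The 10 genes fell into several different patterns over the leukocyte classes. As sums over the class, Apoe, Lpl, Trem2, Gpnmb and Spp1 were highest in macrophage-like cells, Abca1 and Abcg1 in B cell-like cells, Fabp5 in conventional dendritic-like cells, Lgals3 in monocyte-like cells and Cd9 in neutrophil-like cells. These levels depend on how finely the cells are clustered: at resolution 0.5 in place of 1 Apoe was highest in monocyte-like cells, and the macrophage-like class had 6448 CPM of Apoe, 168.1 of Lpl, 236.1 of Trem2 and 1559 of Spp1, compared with 10989, 295.9, 408.1 and 2744 CPM. The members and the other listed genes that are not markers had been left out of the clustering, but the genes that were used vary with them, so these levels describe the classes and are not a test. Levels are compared for 1 gene between cells, never between genes.

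**Figure D1:**
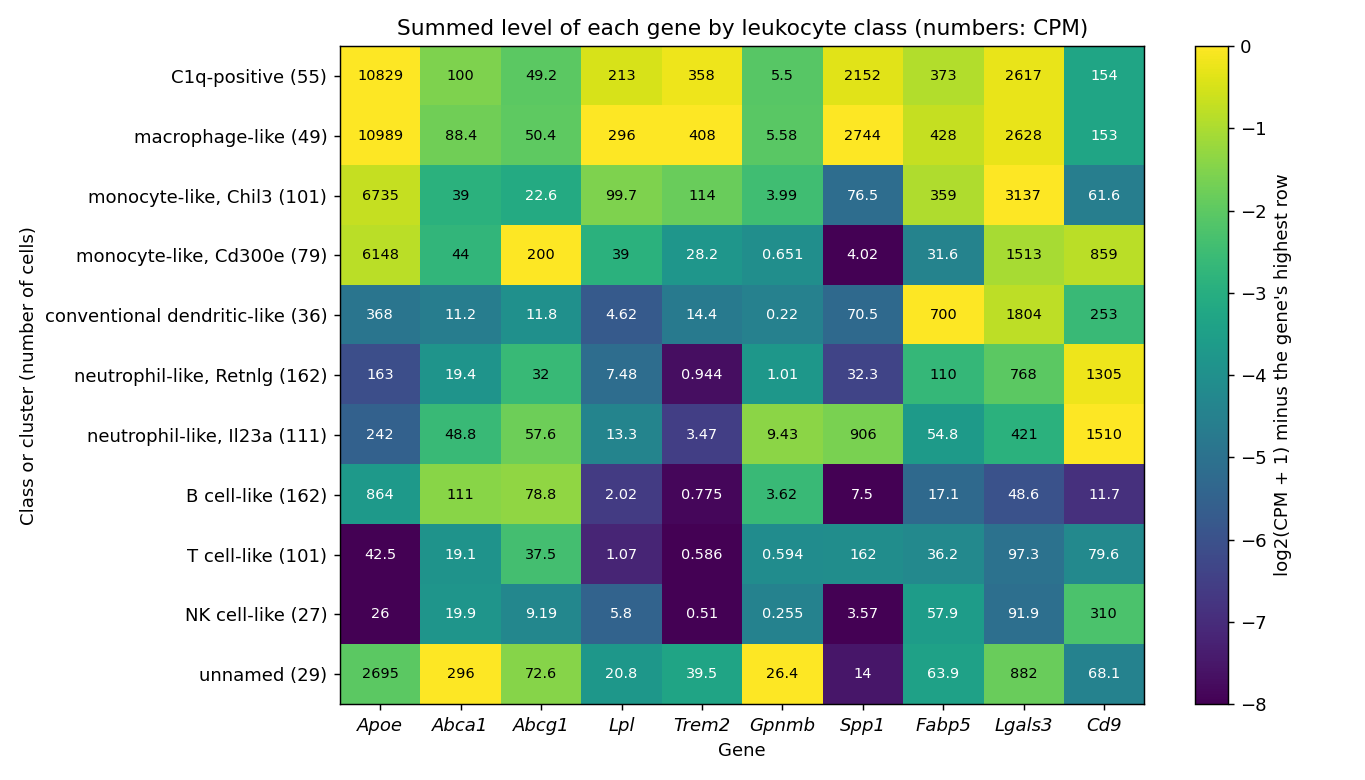
Rows are C1q-positive cells and the leukocyte classes or clusters with their number of cells, columns are the 10 genes, numbers are summed CPM, and colour shows log2(CPM + 1) below the gene's highest row. C1q-positive cells overlap the classes. Trem2 is at 114 CPM or more in the top 3 rows and at 39.5 CPM or less elsewhere, whereas Cd9 is highest in the neutrophil-like rows.

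Apoe, which encodes apolipoprotein E, was at 10989 CPM (10934 to 11044) in macrophage-like cells, 6577 CPM (6549 to 6605) in monocyte-like cells and 864 CPM in B cell-like cells. It was at 368 CPM in conventional dendritic-like, 193 in neutrophil-like, 42.5 in T cell-like and 26.0 in NK cell-like cells. No neighbouring intervals in this order overlapped. Among the 55 C1q-positive cells Apoe ran from 9.71 CPM to 79535 CPM with a median of 8215 CPM, and 1 cell held 14.9% of the counts. It was found in 96.4% of C1q-positive cells at 25000 counts, but also in 57.4% of T cell-like and 37.0% of NK cell-like cells. In B cell-like cells the median was only 62.0 CPM with a highest cell of 8023 CPM, so the class level came from a minority of the cells.

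The exporters had another order. Abca1, which loads cholesterol onto lipid-poor apolipoproteins, was at 111 CPM (105 to 117) in B cell-like cells and 88.4 CPM (83.5 to 93.5) in macrophage-like cells, then 40.3 CPM in monocyte-like and 30.6 CPM in neutrophil-like cells. NK cell-like (19.9 CPM) and T cell-like cells (19.2 CPM) had overlapping intervals, and conventional dendritic-like cells had 11.2 CPM. As a mean over cells macrophage-like cells came first, so the order of the top 2 classes is not settled. The unnamed cluster, with 29 cells, 5 of them C1q-positive, had 296 CPM (272 to 322), and 1 cell held 21.9% of that. Among C1q-positive cells Abca1 ran from 0 to 1898 CPM with a median of 56.2 CPM and was found in 52.7% of them at 25000 counts, compared with 38.9% of B cell-like and 7.92% of T cell-like cells.

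Abcg1, which exports cholesterol to high density lipoprotein, was at 78.8 CPM in B cell-like, 70.5 CPM in monocyte-like and 50.4 CPM in macrophage-like cells. It was at 41.8 CPM in neutrophil-like and 37.5 CPM in T cell-like cells, whose intervals overlapped, and near 10 CPM in conventional dendritic-like (11.8) and NK cell-like cells (9.19). As a mean over cells the monocyte-like class came first. In C1q-positive cells it ran from 0 to 413 CPM with a median of 5.72 CPM, and it was found in 30.9% of them at 25000 counts. Of the classes and clusters it was highest, at 200.3 CPM (191.1 to 209.9), in the monocyte-like cluster led by Cd300e, where the median cell had 49.6 CPM.

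Lpl, lipoprotein lipase, was concentrated in mononuclear phagocytes. It was at 295.9 CPM (286.9 to 305.1) in macrophage-like and 83.3 CPM in monocyte-like cells, and at 9.70 CPM or less in every other named class. Among C1q-positive cells Lpl ran from 0 to 1547 CPM with a median of 24.8 CPM. A few cells carried much of it: 1 cell held 24.1% and 5 cells 65.9% of their Lpl counts. At 25000 counts it was found in 54.6% of C1q-positive, 20.6% of monocyte-like and 4.94% of B cell-like cells.

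Fabp5, a fatty acid binding protein, was listed at 701 CPM in conventional dendritic-like, 428 CPM in macrophage-like and 271 CPM in monocyte-like cells, and at 17.1 to 88.8 CPM in the other named classes. A single conventional dendritic-like cell held 61.1% of that class's counts, and without the top cell of each class the macrophage-like class was highest. Of 362 cells above 0, 277 (76.5%) held fractional Fabp5 counts, as estimated counting gives to reads that match several places, so the share of its level that belongs to near-identical copies is uncertain. In C1q-positive cells it ran from 0 to 3672 CPM with a median of 10.4 CPM.

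Trem2, too, was concentrated in mononuclear phagocytes. It was at 408 CPM (398 to 419) in macrophage-like and 90.8 CPM (87.6 to 94.2) in monocyte-like cells, at 14.4 CPM in conventional dendritic-like cells, where 1 cell held 91.2% of the counts, and at 1.91 CPM or less in neutrophil-like, B, T and NK cell-like cells. Neutrophil-like, B, T and NK cell-like intervals overlapped between neighbours. In C1q-positive cells Trem2 ran from 0 to 1538 CPM with a median of 218 CPM. At 25000 counts it was found in 69.1% (55.2 to 80.9) of C1q-positive cells, 40.6% of monocyte-like cells and 4.76% of neutrophil-like cells.

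Gpnmb was too sparse to order. It was above 0 in 10 of 55 C1q-positive cells, at 5.50 CPM (4.304 to 6.837) in sum, and 1 cell held 54.9% of these counts. The macrophage-like (5.58 CPM), neutrophil-like (4.23), B cell-like (3.62) and monocyte-like (3.09) intervals overlapped between neighbours, and single cells held 81.5% of the neutrophil-like and 85.7% of the B cell-like counts. The unnamed cluster had 26.4 CPM, all of it in 5 cells.

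Lgals3 and Cd9 were broad. Lgals3, galectin-3, was at 2699 CPM in monocyte-like, 2628 CPM in macrophage-like and 1804 CPM in conventional dendritic-like cells, 636 CPM in neutrophil-like cells and 48.6 to 97.3 CPM in lymphoid classes. The top 2 changed places in means over cells. It was above 0 in all 55 C1q-positive cells, from 24.6 to 20692 CPM with a median of 1376 CPM. Cd9, a tetraspanin that organises membrane proteins, was at 1383 CPM (1366 to 1400) in neutrophil-like, 310 CPM in NK cell-like, 277 CPM in monocyte-like, 253 CPM in conventional dendritic-like, 153 CPM in macrophage-like, 79.6 CPM in T cell-like and 11.7 CPM in B cell-like cells. In C1q-positive cells Cd9 ran from 0 to 909 CPM with a median of 11.1 CPM, and it was found in 47.3% of them at 25000 counts, compared with 90.5% of neutrophil-like and 11.1% of B cell-like cells.

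Spp1 was uneven within and between classes. It was at 2744 CPM (2717 to 2772) in macrophage-like cells, 366 CPM (358 to 375) in neutrophil-like cells and 162 CPM in T cell-like cells, of which 1 cell held 93.2% and the other 100 had 11.2 CPM. Conventional dendritic-like cells had 70.5 CPM, monocyte-like cells 57.0 CPM, B cell-like cells 7.495 CPM and NK cell-like cells 3.57 CPM. Among C1q-positive cells Spp1 ran from 0 to 19641 CPM, with quartiles of 1.72 and 2453 CPM around a median of 37.9 CPM. At 25000 counts it was found in 56.4% of C1q-positive and 11.7% of monocyte-like cells, and in 8.03% of B cell-like cells.

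**Figure D2:**
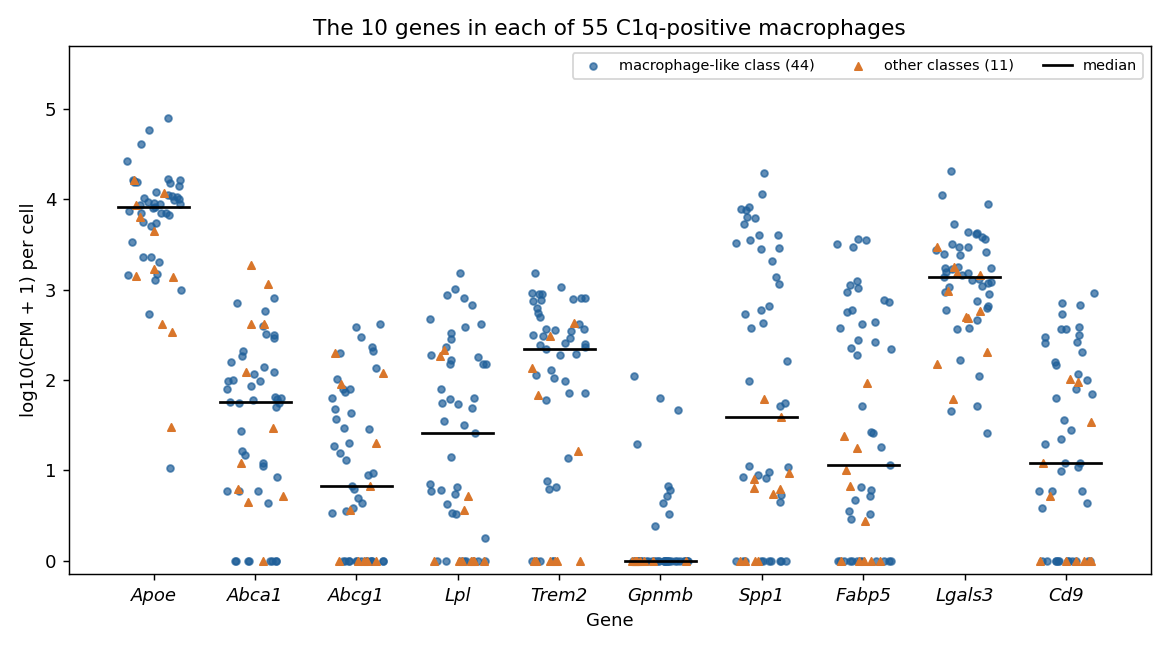
Each point is 1 of 55 C1q-positive macrophages, placed at log10(CPM + 1) for each gene, with the median as a line. Circles are the 44 cells in the macrophage-like class and triangles the 11 in other classes. Apoe and Lgals3 are above 0 in every cell, Spp1 spreads from 0 to 19641 CPM, and no triangle lies above 61.5 CPM for Spp1.

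The 11 C1q-positive cells outside the macrophage-like class differed in several members from the 44 inside it. Spp1 was at 7.76 CPM outside, with a highest cell of 61.5 CPM, and at 2472 CPM inside. Trem2 was at 121 CPM outside and 393 CPM inside, Lpl at 28.2 and 241 CPM, and Fabp5 at 22.3 and 425 CPM. Gpnmb had no count in the 11, which allows up to 1.66 CPM (3 counts of their total), and was at 6.32 CPM inside. The sum of Abca1 was higher outside, at 175 CPM compared with 89.4 CPM inside, but 3 of the 11 cells held 75.8% of it, and the median cell had 28.4 CPM outside and 58.0 CPM inside.

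Trem2 and Spp1 were the members with the highest correlation over the 55 macrophages, where Abca1 had none above 0.08 (values below), and the promoters of these 3 genes are shown to set their sequences side by side. The bases printed are the 250 before the RefSeq start site, read 5′ to 3′ on the strand of the gene in build GRCm38.p6, which is older than the build of the counts. Capitals mark matches on either strand to any of 4 short motifs. These are CACGTG, bound by the lysosomal regulators TFEB and MITF, AGGTCA, the nuclear receptor core site, GAGGAAG, a form of the PU.1 site, and TGANTCA. The last is a loose form of the AP-1 site: N is any base, whereas the AP-1 site has C or G there.
Trem2, chr17:48346151-48346400, plus strand: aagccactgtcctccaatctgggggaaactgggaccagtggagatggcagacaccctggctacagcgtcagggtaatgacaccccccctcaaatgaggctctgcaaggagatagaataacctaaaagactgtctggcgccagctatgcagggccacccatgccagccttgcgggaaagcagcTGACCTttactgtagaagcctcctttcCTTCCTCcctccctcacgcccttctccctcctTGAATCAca
Spp1, first of 2 start sites, chr5:104434861-104435110, plus strand: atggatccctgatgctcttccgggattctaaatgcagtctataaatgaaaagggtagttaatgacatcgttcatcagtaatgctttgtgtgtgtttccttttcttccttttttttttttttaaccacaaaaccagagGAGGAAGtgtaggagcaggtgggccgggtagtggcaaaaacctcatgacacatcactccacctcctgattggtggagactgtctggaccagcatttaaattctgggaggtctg
Abca1, chr4:53159896-53160145, minus strand: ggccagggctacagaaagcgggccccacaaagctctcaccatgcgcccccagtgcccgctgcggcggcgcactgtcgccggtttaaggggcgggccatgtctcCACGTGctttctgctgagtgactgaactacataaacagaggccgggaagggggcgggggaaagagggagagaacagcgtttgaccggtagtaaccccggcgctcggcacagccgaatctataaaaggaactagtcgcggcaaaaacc

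Counting back from the start site, GAGGAAG lay at -113 to -107 in Spp1 and, on the opposite strand, at -41 to -35 in Trem2. Trem2 also held AGGTCA on the opposite strand at -68 to -63. It held TGANTCA at -9 to -3, as TGAATCA, which is not the AP-1 site itself. Abca1 held CACGTG at -147 to -142. Over 32851 mouse promoter windows of the same length, CACGTG was in 6.02%, AGGTCA in 14%, GAGGAAG in 10.6% and TGANTCA in 6.75%. Of the 7 members with a promoter in the table (Apoe, Abca1, Trem2, Gpnmb, Spp1, Lgals3 and Cd9, 10 start sites), no other member held any of the motifs in these windows. The arrangement that LXR binds is a direct repeat of AGGTCA with 4 bases between. Its exact form was in 0.0152% of all windows and in none of the 10. Repeats that differ from the exact form at any base were not searched for. Because the exact form was this rare, its absence cannot tell whether a window holds an LXR site. The matches are letters in a window and say nothing of binding.

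C1q-positive macrophages were next set against the 175 monocyte-like cells that were not C1q-positive, to see which members separate these related cell types. At least 10 CPM on either side was required, which 9 of 10 members met (all but Gpnmb), and a ratio of at least 2 with 1 CPM added to both sides was called. Spp1, Trem2, Abca1 and Lpl were at least 2 times as high in the macrophages, 4 of 9, and no member was at most 0.5 times as high. Over all 7848 genes tested, 11.9% were at least 2 times as high and 8.36% at most 0.5 times as high. The median log2 ratio was 0.75 for the 9 members and 0.03 for all genes tested. With each cell weighted alike, 5 members were at least 2 times as high (Fabp5 joined at a log2 ratio of 1.07, background 16.4%) and 2 at most 0.5 times as high (Abcg1 at -1.18 and Cd9 at -1.79, background 11%).

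Spp1 was at 2152 CPM in the macrophages and 59.0 CPM in the monocyte-like cells, 36.5 times as high (34.8 to 38.2). Trem2 was at 358 and 87.5 CPM, 4.09 times as high (3.90 to 4.28). Abca1 was at 100.5 and 38.1 CPM, 2.64 times as high (2.44 to 2.85). Lpl was at 213 and 85.5 CPM, 2.50 times as high (2.37 to 2.63), and without the macrophage with most Lpl its log2 ratio was 0.99, just short of the line. Apoe was 1.68 times as high and Fabp5 1.33 times. Lgals3 (0.957 times), Abcg1 (0.678 times) and Cd9 (0.537 times) were lower in the macrophages, and without the macrophage with most Cd9 its ratio was 0.466. The 9 tested members thus included genes on either side of 1, with Spp1 and Trem2 far above it.

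The 2 monocyte-like clusters differed from each other in 7 of 9 tested members. The cluster led by Chil3 and Ly6c2, genes of classical monocytes, had 96 C1q-negative cells, and the cluster led by Cd300e and Ace, genes of patrolling monocytes, had 79. This comparison was added after the data had been seen. Cd9 was at 859 CPM in the Cd300e cluster and 63.3 CPM in the Chil3 cluster, 13.6 times as high (12.8 to 14.4), and Abcg1 at 200.3 and 22.8 CPM, 8.77 times as high (7.94 to 9.68). These 2 of 9 members stood beside a background of 23.1%. The Chil3 cluster had 3.93 times as much Trem2 (110.6 and 28.2 CPM), 2.66 times as much Lpl (103.6 and 39.0 CPM), 11.9 times as much Fabp5 (377 and 31.6 CPM), 2.12 times as much Lgals3 (3211 and 1513 CPM) and 20.03 times as much Spp1 (80.5 and 4.02 CPM). These 5 of 9 stood beside a background of 11.4%. A single Chil3-cluster cell held 39.9% of its Spp1 counts, and in the Cd300e cluster 5 cells held 89.6% of the Lpl and 75.9% of the Trem2. Apoe was at 6148 CPM in the Cd300e cluster and 6563 CPM in the Chil3 cluster, 0.937 times as high (0.928 to 0.946).

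Against the Chil3 cluster alone, 6 of 9 members were at least 2 times as high in C1q-positive macrophages (background 15%): Spp1 26.7 times, Trem2 3.23 times, Abca1 2.81 times, Cd9 2.43 times, Abcg1 2.16 times and Lpl 2.06 times, and none was at most 0.5 times as high (background 6.55%). Without the macrophage with most counts of the gene, Abcg1 was 1.91 times and Lpl 1.65 times as high, so these 2 of the 6 rested on 1 cell each. Fabp5 (0.990 times, 0.956 to 1.02) did not differ beyond counting error, and Lgals3 was 0.815 times as high. Against the Cd300e cluster 5 of 9 were at least 2 times as high (background 16.4%), among them Fabp5 at 11.8 times and Spp1 at 536 times (381 to 754), and Abcg1 (0.246 times) and Cd9 (0.179 times) were at most 0.5 times as high (background 20.2%). Abcg1 and Cd9 thus lay above 1 against the first cluster and below 1 against the second.

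**Figure D3:**
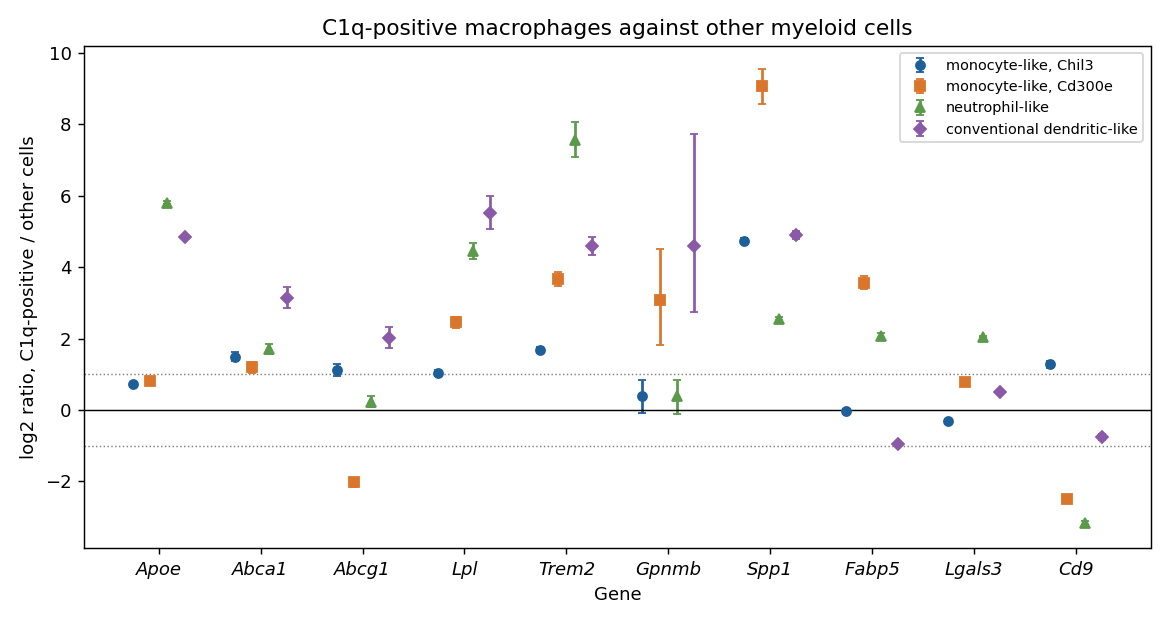
For each gene, the log2 ratio of summed CPM in 55 C1q-positive macrophages to C1q-negative cells of 4 myeloid groups is shown with its exact 95% interval, which covers counting error only. The solid line is a ratio of 1 and the dotted lines are 2-fold. Abcg1 and Cd9 lie above 1 against the Chil3 cluster and below it against the Cd300e cluster. Trem2, Spp1, Abca1 and Lpl lie above the upper dotted line against all 4 groups, with the neutrophil-like clusters pooled.

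Against neutrophil-like cells 7 of 9 members were at least 2 times as high in C1q-positive macrophages (background 38.4%), from Abca1 at 3.28 times to Trem2 at 187 times (135 to 268). Cd9, at 0.111 times, was at most 0.5 times as high (background 18.6%). Against the neutrophil-like cluster led by Il23a alone, Spp1 was 2.38 times and Abca1 2.06 times as high in the macrophages. Without the macrophage with most counts of the gene these were 1.88 and 1.93 times, short of 2. The neutrophil-like clusters differed in Spp1, which was at 906 CPM (884 to 928) in the cluster led by Il23a, Ccl3 and Acod1 and at 32.3 CPM in the cluster led by the granule genes Retnlg, Ngp and Camp, 28.1 times as high (25.3 to 31.2). Abca1 was 2.52 times as high in the Il23a cluster, at 48.8 and 19.4 CPM. These 2 of 8 tested members stood beside a background of 25.7%, and none was at most 0.5 times as high (background 8.02%). A few cells carried the Spp1: 5 of 111 held 80.3% of the counts, at 12843 to 24887 CPM, and the other 106 summed to 186 CPM. In these 5 cells neutrophil markers summed to 6335 to 114916 CPM and macrophage markers to 23.7 to 416 CPM, with the C1q genes at 33.6 CPM or less, and 1 of the 5 was named doublet. Macrophage markers had a median of 177 CPM in the 5 cells and 155 CPM in the other 106, which ran from 0 to 2029 CPM. Of those 106 cells, 14 were named doublet, and whether any of these cells was a mixture was not tested. The 1 T cell-like cell with 9420 CPM of Spp1 also held 8416 CPM of neutrophil markers, more than any other T cell-like cell, whose highest was 1351 CPM.

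Against conventional dendritic-like cells 6 of 9 members were at least 2 times as high in C1q-positive macrophages (background 20.2%). These were Lpl (46.0 times), Spp1 (29.8), Apoe (28.8), Trem2 (24.3), Abca1 (8.87) and Abcg1 (4.06). Lgals3 was 1.42 times as high, and Cd9 (0.593) and Fabp5 (0.519) were lower, without reaching 0.5 times (background 11.5%). Fabp5 was 0.454 times as high without the macrophage with most of it. Its direction rested on 1 conventional dendritic-like cell, which held 61.1% of the class's Fabp5 counts. Without that cell the class had 287 CPM, below the 373 CPM of all C1q-positive cells.

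Co-expression among the 55 macrophages was read from Spearman correlations of CPM over the 45 pairs of members, as a description without a p-value, since the cells share 1 library, differ in depth and give sparse counts. Most pairs had little relation: the median rho was 0.08, 15 pairs were below 0 and 11 reached 0.3. At 25000 counts per cell the median was 0.14, and 7 pairs reached 0.3 on both scales. No share of other gene pairs at 0.3 is set beside these counts. They therefore cannot tell whether members go together more than other genes of these cells. Trem2 and Spp1 had the highest rho, 0.56 (0.50 at equal depth), and both were found in 23 cells, Trem2 alone in 15, Spp1 alone in 8 and neither in 9. Trem2 also reached 0.3 on both scales with Apoe (0.41 and 0.33), Lgals3 (0.41 and 0.39), Lpl (0.35 and 0.36) and Fabp5 (0.35 and 0.33), so it took part in 5 of the 7 pairs. The other 2 were Fabp5 with Lgals3 (0.37 and 0.46) and Apoe with Gpnmb (0.41 and 0.31), where Gpnmb was found in only 2 cells at equal depth.

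The exporters took part in none of these 7 pairs. Over the 55 cells Abca1 had a rho of -0.24 to 0.08 with the other 9 members and Abcg1 of -0.20 to 0.13, and with each other they had 0.07. Over the 44 cells of the macrophage-like class the range was -0.31 (Cd9) to 0.22 (Apoe) for Abca1 and -0.33 (Spp1) to 0.15 (Lpl) for Abcg1. In the cells named A952 Abcg1 had a rho of -0.68 with Fabp5, -0.48 with Spp1, -0.44 with Lgals3 and -0.67 with the summed other genes of the lipid-associated programme. In those named A951 the same values were -0.01, -0.08, 0.31 and -0.06, a difference between sets that was not tested. The number of members found in a cell at equal depth ran from 2 to 9 with a median of 6, and no cell held all 10. Trem2, Spp1 and Lgals3 were found together in 23 cells, the same number as Trem2 and Spp1, since Lgals3 was found in 54 of the 55. This count was not set against the overlap expected by chance from 38 cells with Trem2 and 31 with Spp1.

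**Figure D4:**
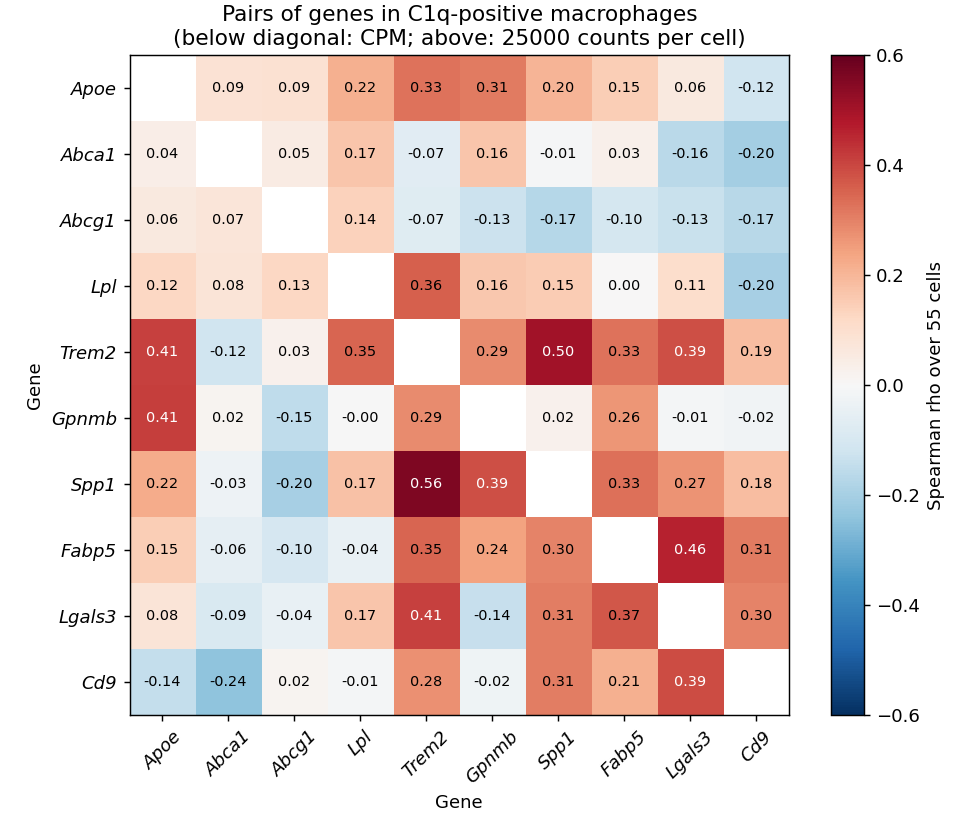
Spearman rho for each pair of genes over 55 C1q-positive macrophages, from CPM below the diagonal and from counts thinned to 25000 per cell above it; red is positive and blue negative. Trem2 and Spp1 give 0.56 and 0.50, and the rows and columns of Abca1 and Abcg1 stay between -0.24 and 0.17.

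Part of these relations moved with class and depth. Within the 44 cells of the macrophage-like class 6 pairs reached 0.3, compared with 11 over all 55. Trem2 and Spp1 held at 0.54 (0.50 at equal depth) there, whereas Apoe and Trem2 went to 0.20, Lpl and Trem2 to 0.24 and Trem2 and Fabp5 to 0.28. Lgals3 gave 0.31 with Trem2 (0.28 at equal depth), 0.36 with Fabp5 and 0.44 with Cd9 (0.33 at equal depth) there, and Apoe gave 0.43 with Gpnmb. Over all 55 cells Lgals3 and Cd9 had 0.39 (0.299 at equal depth). Of the pairs with Trem2, only that with Spp1 reached 0.3 on both scales within the 44 cells. Trem2 and Spp1 gave 0.45 (0.36 at equal depth) over the 18 cells named A951 and 0.59 (0.57) over the 24 named A952. Total counts per cell had a rho of 0.44 with Trem2, 0.41 with Lgals3 and 0.34 with Spp1, and after thinning of 0.39, 0.37 and 0.29. With total counts Trem2 had a rho of 0.53 (0.47 at equal depth) and Spp1 of 0.37 (0.44) in cells named A951, and -0.01 and 0.07 in those named A952. This difference between sets of 18 and 24 cells was not tested.

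Spp1 had a positive rho with the summed resident macrophage genes and a negative one with the summed antigen presentation genes. Its rho with the summed antigen presentation list (7 MHC class II genes and partners) was -0.51 over 55 cells and -0.67 over the 44, and with the summed resident macrophage list 0.56 and 0.53. In cells named A952 the antigen presentation rho was -0.69 and in those named A951 it was -0.20, a difference between sets of 24 and 18 cells that was not tested. The resident rho was 0.52 (0.58 at equal depth) in cells named A952 and 0.47 (0.26) in those named A951. Pf4, the resident gene with the highest level, had a rho of 0.64 with Spp1. Trem2 had a rho of -0.33 with antigen presentation over 55 cells (-0.44 over the 44) and 0.46 with the resident list (0.34 over the 44). The resident genes were not alike: Spp1 had a rho of 0.50 with Cbr2 and 0.46 with Folr2, both genes of resident cardiac macrophages, but 0.21 with Selenop, 0.20 with Timd4 and 0.17 with Lyve1. Of the 55 cells at equal depth, 38 held Trem2, 31 Spp1 and 25 Fabp5. Cbr2 was found in 16 cells, of which 16 held Trem2, 12 Spp1 and 11 Fabp5, and Folr2 in 12 cells, of which 10 held Trem2 and 9 Spp1. Selenop was found in 49 cells, 27 of the 31 with Spp1 and 22 of the 24 without, whereas Lyve1 was found in 3 cells and Timd4 in 0. Ccr2, a gene of recruited monocytes, was found in 26 of the 31 cells with Spp1 and 20 of the 24 without. Lgals3 had a rho of 0.03 with the resident list and 0.63 with the other genes of the lipid-associated programme.

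**Figure D5:**
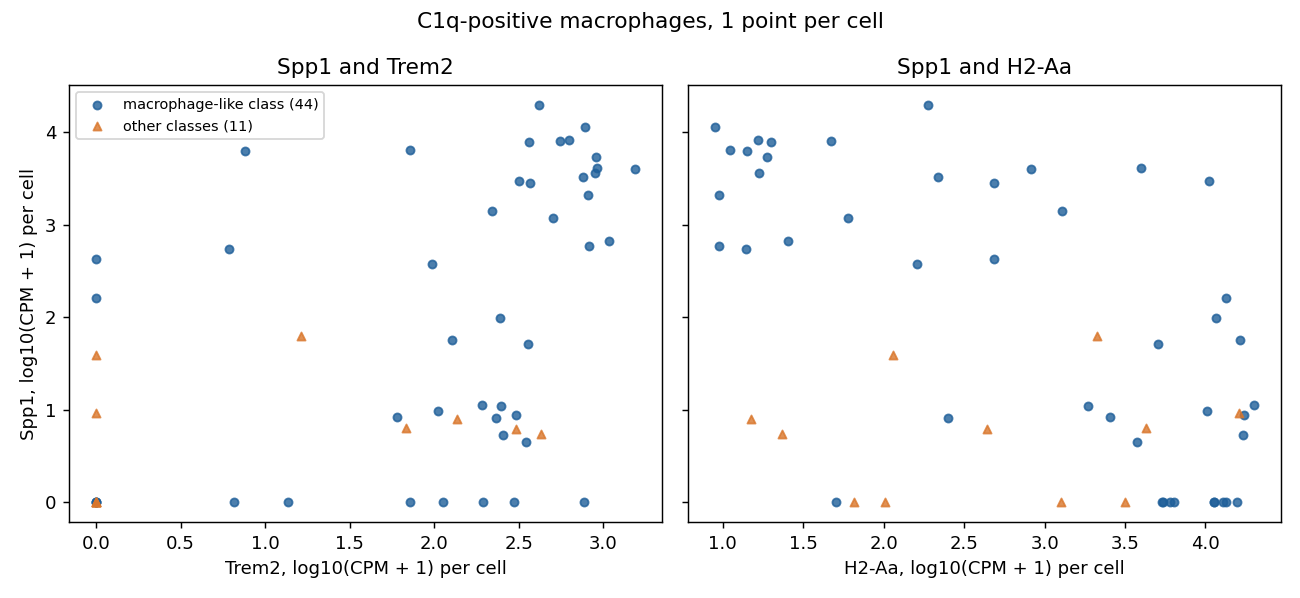
Each point is 1 of 55 C1q-positive macrophages, with Spp1 on the vertical axis against Trem2 (left) and the MHC class II gene H2-Aa (right), as log10(CPM + 1); circles are the macrophage-like class and triangles other classes. Spp1 is high mostly where Trem2 is high (rho 0.56) and low mostly where H2-Aa is high (rho -0.51).

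Lists of related genes, 10 in all and none holding a member, were counted in the same comparison with monocyte-like cells, where 11.9% of all genes tested were at least 2 times as high and 8.36% at most 0.5 times as high and the median log2 ratio was 0.03. Of 21 tested other genes of the lipid-associated programme, 12 were at least 2 times as high and 1 at most 0.5 times as high, with a median log2 ratio of 1.07. The highest by level were the chemokine gene Ccl6 (3889 and 2615 CPM), the protease genes Ctsb (2829 and 1930 CPM) and Ctss (2589 and 2780 CPM), none of which was called, and the protease inhibitor gene Cstb (1592 and 757 CPM), 2.10 times as high. Among the called genes, Arg1, which encodes arginase, was 33.9 times as high (127 and 3.75 CPM) and the matrix protease gene Mmp12 18.6 times, with 46.4% of its counts in 1 cell. Cd63, a lysosomal tetraspanin, was 12.7 times as high, and the exception in the other direction was the integrin gene Itgax at 0.378 times.

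Against the pooled monocyte-like cells, the sterol and fat pathways around the members did not share that pattern. List genes are not given against the Chil3 and Cd300e clusters apart. Of 17 tested genes of LXR and cholesterol handling, 2 were at least 2 times as high, the lipid transfer protein gene Pltp (250 and 80.8 CPM, 3.10 times) and Nceh1, an esterase that frees stored cholesterol (2.04 times). Apoc1 (0.478 times) and Apoc2 (0.334 times), which lie beside Apoe in the genome, were at most 0.5 times as high, and the list's median log2 ratio was -0.23. Npc2, which moves cholesterol out of lysosomes, was at 669 and 816 CPM, the scavenger receptor gene Msr1 at 301 and 206 CPM and Lrp1, a receptor for Apoe-bearing particles, at 235 and 193 CPM. Of 14 tested lipid droplet and fatty acid genes, 1 was at least 2 times as high, Plin3 (75.03 and 33.91 CPM), and 3 at most 0.5 times as high: Dgat2, a triglyceride-making enzyme (0.0951 times), Fabp4 (0.259 times) and the nuclear receptor gene Pparg (0.434 times). Pparg was among the leading genes of the Cd300e cluster. Plin2, which coats lipid droplets, was at 802 and 913 CPM, and the list's median was -0.18.

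The receptor side gave few calls. Of 12 tested genes of TREM2 signalling, Vav3 was 2.03 times as high, Trem1, an activating receptor of monocytes and neutrophils, was 0.296 times as high, and 10 were neither (median -0.20). Tyrobp, the adaptor of Trem2, was at 3061 and 4512 CPM, and the kinase gene Syk at 126 and 139.5 CPM. None of 13 lysosomal genes and their MiT/TFE regulators was called either way (median 0.16), with Psap at 1894 and 2531 CPM, Atp6v0c at 1060 and 824 CPM and Lamp1 at 716 and 630 CPM.

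Among 12 osteopontin and galectin partners 4 were at least 2 times as high: galectin-1 (Lgals1, 2869 and 614 CPM, 4.67 times), the osteopontin-binding integrin gene Itga9 (9.18 times), the engulfment receptor gene Mertk (7.73 times) and the integrin gene Itga5 (2.06 times). The integrin genes Itga4 (0.303 times) and Itgb3 (0.233 times) were at most 0.5 times as high, and the osteopontin receptor gene Cd44 was at 571 and 980 CPM. Of 10 tetraspanins, 4 were at least 2 times as high (Tspan4 at 11.1 times, Tspan3, Cd151 and Cd81) and 2 at most 0.5 times as high (Cd82 and Tspan13). Of 10 tested resident macrophage genes 9 were at least 2 times as high and none lower (median 4.099), led in level by the chemokine gene Pf4 (2223 and 7.21 CPM), with the exception F13a1 (700 and 489 CPM). Of 9 recruited monocyte genes 5 were at most 0.5 times as high and none at least 2 times as high (median -1.67), and Ccr2 was at 764 and 599 CPM. Ly6c2, Ccr2, Plac8 and Chil3 of this list were also markers that named the Chil3 cluster monocyte-like. Ly6c2, Plac8 and Chil3 were among the 5 lower genes, so their calls follow in part from how that class was formed. All 7 antigen presentation genes were at least 2 times as high (median 2.73), for example H2-Aa at 4659 and 615 CPM.

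The genes most like each member over the 7 named classes were found by Pearson correlation of log2(CPM + 10), among 5127 genes with at least 50 CPM in a class, and describe 7 points. The nearest 2 were Rab3il1 and C3ar1 for Trem2 (r of 0.99 and 0.99), Tmem86a and Camk1 for Lpl (0.99 and 0.98), Cd93 and Adam9 for Apoe (0.97 and 0.97), Cd53 and Fxyd5 for Cd9 (0.97 and 0.97), and Dtnbp1 and Hsbp1 for Spp1 (0.94 and 0.93). For the exporters they were Ecpas and Pip4p1 (Abca1) and Sh3bp5 and Copb1 (Abcg1), all 4 highest in B cell-like cells. Over the 55 macrophages the nearest by Spearman rho, among 4920 genes found in at least 50% of them, were Selenop (0.64) and Trf (0.53) for Apoe, Lgals1 (0.65) and Pf4 (0.64) for Spp1, Vim (0.69) and Ftl1 (0.66) for Lgals3, Ppp1cc (0.60) and Rnase4 (0.60) for Trem2, and Got1 (0.61) and Sh2b2 (0.54) for Abca1. For Fabp5 they were Gm18103 (0.94), a predicted gene at 12.7 CPM, and Cd63 (0.66). Most cells with Fabp5 held fractional counts of it, and whether Fabp5 and Gm18103 share reads was not tested. These are the top values over all those genes and are subject to that choice.

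By hashtag name, used as given, C1q-positive cells were 18 of 316 kept cells named A951, 24 of 134 named A952, 3 of 114 named A953, 9 of 247 named A965 and 1 of 46 named doublet. Between the larger sets, the median Apoe was 8241 CPM in A951 and 8778 CPM in A952, the median Trem2 143 and 309 CPM, the median Spp1 105 and 52.2 CPM and the median Fabp5 0 and 240 CPM. Fabp5 was found in 3 of 18 and 15 of 24 of these cells at equal depth. The ranges of the cells overlapped for every member, and a single A951 cell held 54.9% of that set's Spp1 counts.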

How the data were processed

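Per the labels' protocols, pooled sorted heart cells were run on the BD Rhapsody system and amplified by TAS-Seq. The submitters' processing notes name STAR, STARsolo 2.7.10b, cutadapt 4.1, R 4.3.1 and build GRCm39. The deposited transcriptome matrix holds the authors' estimated counts (expected counts), not normalized, and 69.8% of the values above 0 are whole. The deposited hashtag table holds whole counts and was not used. The sources used here do not say whether molecules or reads were counted, and intervals are too narrow if reads.

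Cells with at least 500 counts, 200 genes and at most 25% mitochondrial counts were kept, clustered with scanpy 1.11.5 (2000 variable genes, 30 components, 15 neighbours, resolution 1) and named from markers: at least 3 at 50 CPM and 2 times the other cells. No doublet caller was run, and cells named doublet were kept. Intervals are exact Poisson or Clopper-Pearson, and their code was tested on simulated counts. The members, the 10 gene lists and the markers were chosen with earlier results of these data known. Named genes were all members, the 2 genes most like each, up to 4 per list by level in C1q-positive cells, and exceptions; some of these genes are not reported here. Monocyte-like and neutrophil-like cluster comparisons, relations within the macrophage-like class or a hashtag name, the cells with most Spp1, and ratios without the macrophage with most counts were added after seeing the data. Motifs were searched in RefSeq promoters of GRCm38.p6.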

Additional observations from a re-analysis of the deposited data

How the results depend on the processing

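With 1 library, no replicate could be left out. No paired analysis was possible because the transcriptome and hashtag libraries share only 1 replicate number and were not compared. The number of C1q-positive cells, of members at least 2 times as high as in monocyte-like cells and of member pairs at a rho of 0.3 moved by less than 1.5 times under all settings run, except the pairs under 1 setting. With each cell weighted alike, 2 members (Abcg1 and Cd9) were at most 0.5 times as high in C1q-positive cells, compared with 0 by sums. Within C1q-positive cells of the macrophage-like class (added after seeing the data), 6 pairs reached 0.3, compared with 11. Log2 ratios to monocyte-like cells over 9 alternatives ran from 4.83 to 5.7 for Spp1, 1.91 to 2.15 for Trem2, 1.20 to 1.85 for Abca1, 0.99 to 1.48 for Lpl, 0.54 to 0.82 for Apoe, 0.22 to 1.07 for Fabp5, -0.25 to 0.80 for Gpnmb, -0.38 to 0.04 for Lgals3, -1.18 to -0.41 for Abcg1 and -1.79 to -0.73 for Cd9. Leaving out the macrophage with most counts gave the lowest value for Lpl, Gpnmb, Lgals3, Fabp5, Spp1 and Apoe. Counts of list genes at least 2 times as high went from 2 to 1 (LXR) under 10 CPM added and with each cell alike, from 4 to 2 (tetraspanins) under 10 CPM added, from 1 to 0 (lipid droplet and TREM2 lists) under 10 CPM added, and, with each cell alike, from 1 to 2 in both of these and from 0 to 2 for the lysosome list. At clustering resolution 0.5 Apoe was highest in the monocyte-like class (6448 CPM in macrophage-like cells). Depth limits Gpnmb most, found in 2 of 55 cells at 25000 counts.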
